A study of Mus musculus with 144 samples.

Results

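Livers of 6-month-old mice were compared between nmrHAS2 animals, which carry the hyaluronan synthase 2 of the naked mole-rat as a transgene, and CreER control animals. The comparison took 12 of the 144 libraries of the series, chosen by their labels for tissue, age and genotype: 3 of nmrHAS2 females, 3 of CreER females, 3 of nmrHAS2 males and 3 of CreER males. RNA came from frozen, pulverized liver, and 17270 of the 40946 genes in the table passed the filter on low counts and were tested. The study asked what accompanies the longer life and health of nmrHAS2 mice, and the age of 6 months gives the state of the liver before old age. The labels name CreER as the control genotype. The sources used here do not give the promoter that drives the transgene, any inducing treatment, the strain or the hour of day at which livers were taken.

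The liver is built mainly of hepatocytes, which make plasma proteins, bile acids and, in mice, major urinary proteins. Its sinusoids are lined by a specialised endothelium that takes hyaluronan, a long polysaccharide of the extracellular matrix, out of the blood through the scavenger receptor Stab2. Kupffer cells are the resident macrophages, and stellate cells store vitamin A and can lay down collagen. Much of liver transcription also follows the time of day through the circadian clock, in which Arntl (also known as Bmal1) and its partners drive the Per and Cry repressors.

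Values per library are CPM, counts scaled by edgeR to a common library size after TMM normalization, and are given in the order of replicates 1, 2 and 3. Changes are log2 changes of nmrHAS2 over CreER ± standard error from edgeR, with both sexes weighted equally unless a sex is named. A gene is called when its p, adjusted over all genes tested, is under 0.05. In bulk tissue, fewer cells of a type and less RNA per cell cannot be told apart.

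The libraries set some limits of their own. The 6 female libraries held 78.0 to 97.4 M counts and the 6 male ones 20.1 to 27.9 M. In females 13.4 to 17.2% of the counts fell on 8 RNAs that lack a poly(A) tail, and in males under 1%, so that sex and kind of library cannot be told apart, while both genotypes of a sex had the same kind. Genes of the mitochondrial genome took 3.46% of the counts in male nmrHAS2 replicate 2 and 5.68% in replicate 3, against 10.6 to 11.1% in the other 4 male libraries. The summed level of 16 hepatocyte markers ranged from 137200 to 142876 CPM in nmrHAS2 females, against 136175 to 149774 CPM in CreER females. In nmrHAS2 males it ranged from 104892 to 134913 CPM, against 108065 to 136092 CPM in CreER males. These markers are those of the labelled tissue, and the hepatocyte sums of the genotypes overlapped in both sexes.

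The transgene was detected at a low level in nmrHAS2 females. It had 38, 34 and 49 counts in nmrHAS2 females, or 0.402, 0.436 and 0.503 CPM of the library total, and 0 counts in all 3 CreER females, where 3 counts would be 0.0308 to 0.0370 CPM. The lowest nmrHAS2 female was at least 10.9-fold above the highest of these limits. Male nmrHAS2 livers had 3, 0 and 1 counts and male CreER livers 0, 1 and 0, so that the transgene did not separate the male genotypes. In males 3 counts were worth 0.108 to 0.149 CPM, below the level in nmrHAS2 females. Over both sexes the transgene was not called (adjusted p = 0.0807). The mouse's own Has2 had 3, 7 and 5 counts in nmrHAS2 and 1, 1 and 0 counts in CreER females, and 0 or 1 count in each male library, too few to be tested.

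At 6 months 8 genes were called for genotype over both sexes, 0.0463% of those tested: 6 rose (0.0347%) and 2 fell (0.0116%) in nmrHAS2 livers. The largest rise above 2 CPM was that of Rnf144a, a RING-type ubiquitin ligase. It had 6.28, 7.06 and 6.24 CPM in nmrHAS2 and 4.42, 3.65 and 3.95 CPM in CreER females. In males it had 5.08, 4.20 and 4.56 CPM in nmrHAS2 and 2.49, 1.79 and 1.24 CPM in CreER livers. Every nmrHAS2 library lay above every CreER library of its sex, and the change was 1.01 ± 0.18 (adjusted p = 0.0485).

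Map4k4, a kinase of the Ste20 family, was next. It had 22.0, 19.996 and 18.7 CPM in nmrHAS2 and 13.6, 12.985 and 13.5 CPM in CreER females, and 13.045, 14.8 and 12.5 CPM in nmrHAS2 and 7.57, 7.23 and 3.62 CPM in CreER males. The groups did not overlap in either sex, and the change was 0.86 ± 0.13 (adjusted p = 0.0280). Hecw2, a HECT-type ubiquitin ligase, had 9.25, 9.59 and 10.4 CPM in nmrHAS2 and 7.35, 7.59 and 9.31 CPM in CreER females. Its male values were 3.40, 5.82 and 3.37 CPM in nmrHAS2 and 1.51, 1.83 and 1.65 CPM in CreER livers. Both sexes showed the same order, with an overlap between genotypes in females, where CreER replicate 3 lay above nmrHAS2 replicate 1, and the change was 0.80 ± 0.13 (adjusted p = 0.0280).

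Ptprb, the receptor phosphatase of endothelial cells known as VE-PTP, had 97.6, 83.7 and 85.2 CPM in nmrHAS2 and 82.7, 81.5 and 83.7 CPM in CreER females. In males it had 73.0, 77.1 and 82.6 CPM in nmrHAS2 and 48.2, 34.2 and 31.7 CPM in CreER livers. Most of the call (0.57 ± 0.09, adjusted p = 0.0280) thus came from the males, with 1.03 ± 0.13 in males and 0.10 ± 0.13 in females. Specc1l, which links actin and microtubules, had 20.7, 22.6 and 22.4 CPM in nmrHAS2 and 18.5, 19.4 and 18.2 CPM in CreER females. In males it had 21.6, 23.6 and 23.0 CPM in nmrHAS2 and 16.8, 13.3 and 13.8 CPM in CreER livers. The groups were apart in both sexes by a small step, 0.43 ± 0.07 (adjusted p = 0.0280).

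The last of the rises, Adamts4, lay under the level of 2 CPM set for naming and is given because the calls are few. It encodes a secreted protease that cuts the hyaluronan-bound proteoglycans aggrecan and versican. Its level was 0.432, 0.363 and 0.256 CPM in nmrHAS2 and 0.142, 0.164 and 0.0821 CPM in CreER females, and 0.273, 1.67 and 0.384 CPM in nmrHAS2 and 0.0388, 0.128 and 0.0915 CPM in CreER males. No nmrHAS2 library overlapped a CreER library of its sex, male nmrHAS2 replicate 2 stood highest, and the change was 2.28 ± 0.40 (adjusted p = 0.0411). The CreER males lay around the limit of 3 counts per library, 0.108 to 0.116 CPM of the library total. The size of the change and the separation in males are therefore uncertain.

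**Figure D1:**
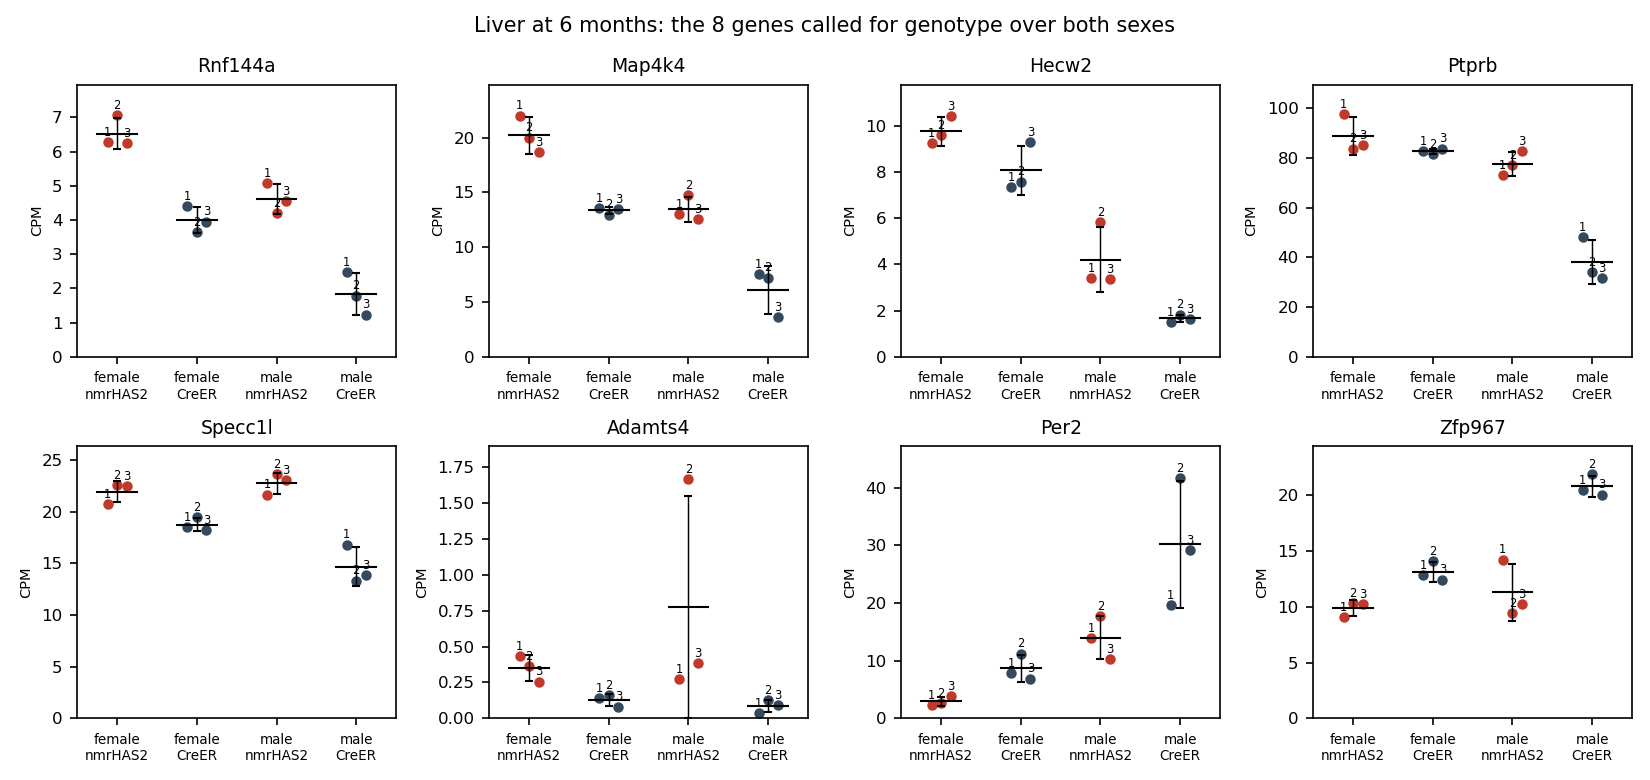
Level in CPM (linear axis) of the 8 genes called over both sexes, by group; points are libraries numbered by replicate, horizontal lines the mean and vertical bars 1 SD (n = 3), clipped at 0. Rnf144a, Map4k4 and Specc1l stand higher in all nmrHAS2 livers of each sex, Per2 and Zfp967 stand lower, and Ptprb is apart mainly in males, where nmrHAS2 livers lie between 73.0 and 82.6 CPM and CreER livers between 31.7 and 48.2 CPM.

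The genes that fell were Per2 and Zfp967. Per2, a repressor of the circadian clock, had 2.33, 2.57 and 3.86 CPM in nmrHAS2 and 7.87, 11.2 and 6.88 CPM in CreER females, and 13.9, 17.7 and 10.3 CPM in nmrHAS2 and 19.6, 41.6 and 29.2 CPM in CreER males. All nmrHAS2 livers were below the CreER livers of their sex, and the change was -1.34 ± 0.24 (adjusted p = 0.0411). Zfp967, a zinc finger protein, had 9.04, 10.3 and 10.3 CPM in nmrHAS2 and 12.8, 14.1 and 12.4 CPM in CreER females, and 14.2, 9.43 and 10.2 CPM in nmrHAS2 and 20.4, 21.9 and 20.05 CPM in CreER males. The groups were again apart in both sexes (-0.64 ± 0.11, adjusted p = 0.0280). Zfp967 belongs to a family of similar zinc finger genes whose reads Salmon may divide between copies, so that its value is uncertain.

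These calls lie close to the threshold. None of the 8 remained when female CreER replicate 1, female CreER replicate 2, female nmrHAS2 replicate 1 or male CreER replicate 2 was left out, 1 remained without male CreER replicate 3, 3 without male nmrHAS2 replicate 3, 4 without female nmrHAS2 replicate 2 and 5 without female CreER replicate 3. The number called grew to 17 without female nmrHAS2 replicate 3, 41 without male nmrHAS2 replicate 2, 152 without male CreER replicate 1 and 808 without male nmrHAS2 replicate 1, and was 0 without male nmrHAS2 replicates 2 and 3 together. In the fit of the 12 young libraries alone 0 genes were called, with 2083 at an unadjusted p under 0.05 against 2500 with all 24 liver libraries, where DESeq2 called 500. With the replicate number as a block 65 genes were called, all 8 among them. Below the threshold the next genes by p that fill the naming rule to 8 a direction, all with an adjusted p of 0.0508 to 0.0609, were Myh1 of muscle fibres (7.40 ± 1.39), the adhesion receptor Adgrf5 (0.65 ± 0.12) and Amotl1 (0.69 ± 0.13) on the higher side. On the lower side were Zfp809 (-0.48 ± 0.10), Pin4 (-0.53 ± 0.11), Rbis (-0.71 ± 0.15), and 3 genes for the respiratory chain or its assembly, Cox16 (-0.47 ± 0.10), Cox6c (-0.54 ± 0.12) and Ndufa5 (-0.50 ± 0.11).

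Without regard to a test, 138 genes (0.799%) were higher in every nmrHAS2 library than in every CreER library of the same sex, in both sexes, and 161 genes (0.932%) were lower. By the sign of the change alone, 27.9% of genes were higher and 29.9% lower in both sexes.

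Of 20 clock genes and direct outputs tested, 1 was called, Per2, against 0.0463% of all genes, and at an unadjusted p under 0.05 the list had 5 higher and 8 lower, against 6.93% of all genes higher and 7.54% lower at that threshold. The activator Arntl had 27.3, 26.9 and 14.3 CPM in nmrHAS2 and 17.5, 11.3 and 6.57 CPM in CreER females. In males it had 18.6, 4.02 and 18.4 CPM in nmrHAS2 and 6.52, 3.45 and 1.65 CPM in CreER livers. Male nmrHAS2 replicate 2 lay among the CreER males and the other 2 far above them (1.38 ± 0.34, adjusted p = 0.0818). Npas2, which can take the place of Clock beside Arntl, had 2.67, 2.65 and 0.407 CPM in nmrHAS2 and 1.20, 0.457 and 0.452 CPM in CreER females. Its male values were 2.66, 0.271 and 4.99 CPM in nmrHAS2 and 0.621, 0.255 and 0.137 CPM in CreER livers. The change of 2.18 ± 0.58 did not pass (adjusted p = 0.0915), and in each sex 1 nmrHAS2 library lay as low as the CreER libraries.

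Several other members of the list lay on the lower side. Dbp, a transcription factor whose output follows the clock closely, had 2.31, 1.10 and 9.47 CPM in nmrHAS2 and 6.95, 13.7 and 21.8 CPM in CreER females. In males it had 2.34, 61.0 and 5.29 CPM in nmrHAS2 and 37.5, 66.0 and 106 CPM in CreER livers. Per3 had 1.27, 1.84 and 6.44 CPM in nmrHAS2 and 5.36, 7.79 and 8.25 CPM in CreER females, and 2.89, 10.0 and 3.71 CPM in nmrHAS2 and 12.3, 17.8 and 34.9 CPM in CreER males. Female nmrHAS2 replicate 3 and male nmrHAS2 replicate 2 stood nearest to the CreER livers in Dbp, Per3 and Ciart, and apart from the other 4 nmrHAS2 libraries. None of Dbp (-1.67 ± 0.61, adjusted p = 0.216), Per3 (-1.57 ± 0.41, adjusted p = 0.0919) or Ciart (-1.67 ± 0.87, adjusted p = 0.387) passed. Cry1 (0.78 ± 0.26) and Nfil3 (0.68 ± 0.20) were on the higher side and Tef, Hlf, Usp2 and Bhlhe41 on the lower side, again with none past the threshold, while Per1 (-0.11 ± 0.39) and Cry2 (-0.21 ± 0.15) differed little. Of the 20 genes, 1 had opposite signs in the sexes. In females 1 was apart on the higher side (5.63% of all genes) and 2 on the lower (5.49%), in males 2 on the higher side (6.94%) and 4 on the lower (8.99%), and Per2 was apart in both. Since the hour of collection is not known, its part in these values was not tested.

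**Figure D2:**
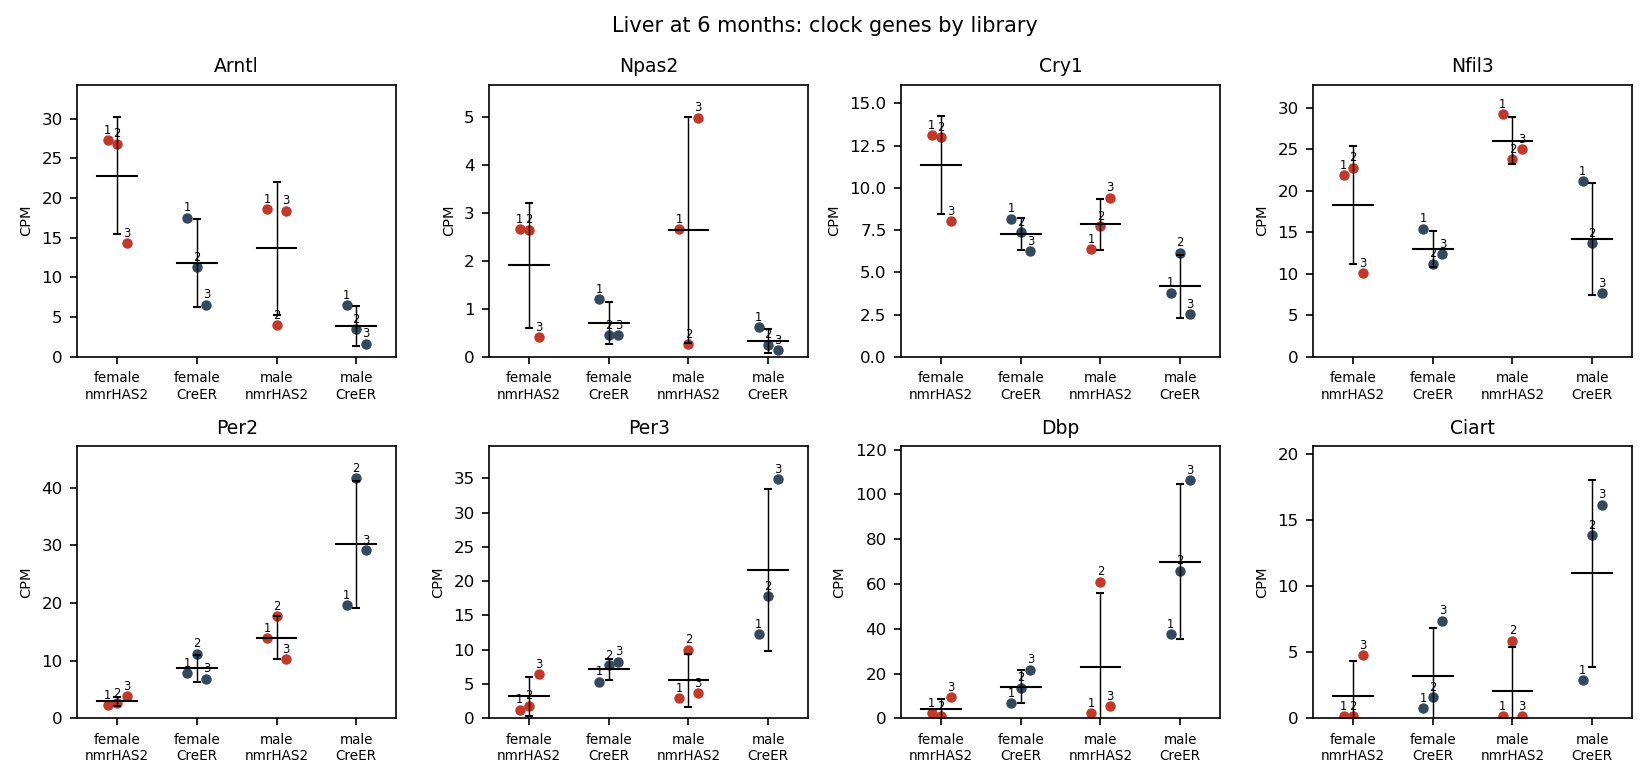
Level in CPM (linear axis) of 8 clock genes by group; points are libraries numbered by replicate, horizontal lines the mean and vertical bars 1 SD (n = 3), clipped at 0. Female nmrHAS2 replicate 3 and male nmrHAS2 replicate 2 sit with the CreER livers for Arntl, Npas2, Dbp and Ciart, and for Per2 all 6 nmrHAS2 livers are lower than the CreER livers of their sex.

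The promoters of some of these genes hold the elements by which the loop is read. The E-box, CACGTG, is the site of Arntl with Clock or Npas2, and AGGTCA is the core of the element that Rora and the Nr1d repressors share. Each line gives 250 bases before and 50 bases after an annotated start site on the gene's strand, from RefSeq on GRCm38.p6, with matches on either strand in capitals. The windows printed are examples that hold a match. Ciart at chr3:95882179-95882478 and Bhlhe41 at chr6:145865371-145865670, both on the minus strand, are from genes lower in nmrHAS2 livers. Cry1 at chr10:85185005-85185304 (minus), Arntl at chr7:113207261-113207560 (plus) and Nfil3 at chr13:52980990-52981289 (minus) are from genes higher.
Ciart: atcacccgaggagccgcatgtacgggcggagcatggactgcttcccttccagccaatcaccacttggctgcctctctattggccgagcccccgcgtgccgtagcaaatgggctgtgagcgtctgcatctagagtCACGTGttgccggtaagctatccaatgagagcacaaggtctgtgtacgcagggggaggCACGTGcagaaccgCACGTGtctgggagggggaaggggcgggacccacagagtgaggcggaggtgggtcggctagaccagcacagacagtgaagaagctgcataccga
Bhlhe41: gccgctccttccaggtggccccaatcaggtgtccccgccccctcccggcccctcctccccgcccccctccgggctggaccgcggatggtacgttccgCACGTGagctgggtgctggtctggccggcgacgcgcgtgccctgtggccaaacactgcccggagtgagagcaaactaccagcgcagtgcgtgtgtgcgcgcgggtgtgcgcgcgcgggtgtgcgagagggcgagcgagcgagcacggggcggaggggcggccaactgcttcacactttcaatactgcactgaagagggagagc
Cry1: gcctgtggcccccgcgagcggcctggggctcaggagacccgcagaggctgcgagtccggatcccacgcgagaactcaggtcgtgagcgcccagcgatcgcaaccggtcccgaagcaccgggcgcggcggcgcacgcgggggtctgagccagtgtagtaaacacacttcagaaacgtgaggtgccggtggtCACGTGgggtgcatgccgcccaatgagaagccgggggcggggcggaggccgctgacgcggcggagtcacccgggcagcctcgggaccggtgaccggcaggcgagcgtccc
Arntl: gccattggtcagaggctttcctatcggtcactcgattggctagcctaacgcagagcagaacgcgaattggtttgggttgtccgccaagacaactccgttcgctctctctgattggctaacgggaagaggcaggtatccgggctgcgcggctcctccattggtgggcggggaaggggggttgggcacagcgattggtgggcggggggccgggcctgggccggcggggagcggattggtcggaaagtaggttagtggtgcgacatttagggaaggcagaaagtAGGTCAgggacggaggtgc
Nfil3: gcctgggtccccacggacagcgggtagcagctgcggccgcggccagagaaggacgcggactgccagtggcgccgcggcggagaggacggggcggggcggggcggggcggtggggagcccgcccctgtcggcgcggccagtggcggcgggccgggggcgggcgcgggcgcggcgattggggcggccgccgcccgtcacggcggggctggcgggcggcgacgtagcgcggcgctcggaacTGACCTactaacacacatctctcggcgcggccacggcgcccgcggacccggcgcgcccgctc
Ciart holds 3 E-boxes, Bhlhe41 and Cry1 hold 1 each, and Arntl and Nfil3 hold 1 AGGTCA core each. Of the clock genes, 17 had a window, and Per2, the clock gene that was called, had none. Of those with a window, 4 of the 11 lower in nmrHAS2 and 1 of the 6 higher hold an E-box in at least 1 window. AGGTCA is held by 3 of the 6 higher and 2 of the 11 lower. Npas2, Per3, Cry2, Nr1d1, Dbp, Hlf, Rora and Usp2 hold neither word in a window. Of 27025 promoters of the same length, taken as the first window of each gene, 7.24% hold CACGTG and 16% hold AGGTCA. The clock counts take any window of a gene, so they cannot be set directly against these shares. Among the genes on the higher side, Arntl and Clock hold AGGTCA only in a window that is not their first. None of the printed windows holds both words, and a match describes the sequence and does not show that a factor binds there.

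Within males alone 401 genes (2.32%) were called, 210 higher (1.22%) and 191 lower (1.11%) in nmrHAS2 livers. Within females 1 gene was called (0.00579%), with 340 at an unadjusted p under 0.05 against 3361 in males. The difference between the sexes was itself called for 1 gene (0.00579%), so that the male changes are not shown to be particular to males. Of the 210 rises in males, 173 had the same sign in females, where their median change was 0.13 against 1.12 in males. Of the 191 falls, 134 had the same sign in females, with a median of -0.08 in females and -0.73 in males. The male count moved widely with single libraries: 6 genes without CreER replicate 2, 17 without CreER replicate 3, 222 without nmrHAS2 replicate 2, 263 without nmrHAS2 replicate 3, 265 without female CreER replicate 1 and 1735 without nmrHAS2 replicate 1. It was 2 in the fit of the 12 young libraries alone and 26 without nmrHAS2 replicates 2 and 3 together.

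Among the 43 lists, markers of the sinusoidal endothelium had the highest share of calls in males: 7 of 15 tested markers were called, against 1.22% of all genes, 11 of 15 were apart between the male genotypes, against 6.94% of all genes, and the median change was 0.89. Stab2, the clearance receptor for hyaluronan, had 44.6, 75.4 and 65.2 CPM in nmrHAS2 and 35.1, 24.0 and 26.7 CPM in CreER males, a change of 1.11 ± 0.23 (adjusted p = 0.0179). In females it had 92.0, 89.5 and 66.5 CPM in nmrHAS2 and 71.2, 70.4 and 56.6 CPM in CreER livers. The female genotypes overlapped, since nmrHAS2 replicate 3 lay below CreER replicates 1 and 2.

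Kdr, the VEGF receptor of endothelial cells, had 34.4, 50.4 and 48.6 CPM in nmrHAS2 and 27.9, 18.5 and 15.0 CPM in CreER males (1.12 ± 0.21, adjusted p = 0.0133). Oit3, a secreted protein of these cells, had 24.6, 39.7 and 31.6 CPM in nmrHAS2 and 16.0, 14.6 and 11.3 CPM in CreER males (1.19 ± 0.22, adjusted p = 0.0106). Pecam1, Cdh5, Tek and Bmp2 also rose, by 0.77 to 1.28. Clec4g, a lectin found on the same cells, differed by 0.17 ± 0.17 (adjusted p = 0.618), and Wnt9b by 0.19 ± 0.42. The summed level of the markers was 318, 402 and 405 CPM in nmrHAS2 and 258, 208 and 187 CPM in CreER males, and 419, 424 and 365 CPM in nmrHAS2 and 378, 367 and 309 CPM in CreER females. The sums were apart in males and overlapped in females. In females 0 markers were called, against 0.00579% of all genes, and the median change was 0.20. Without male nmrHAS2 replicates 2 and 3 the male median was 0.53.

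**Figure D3:**
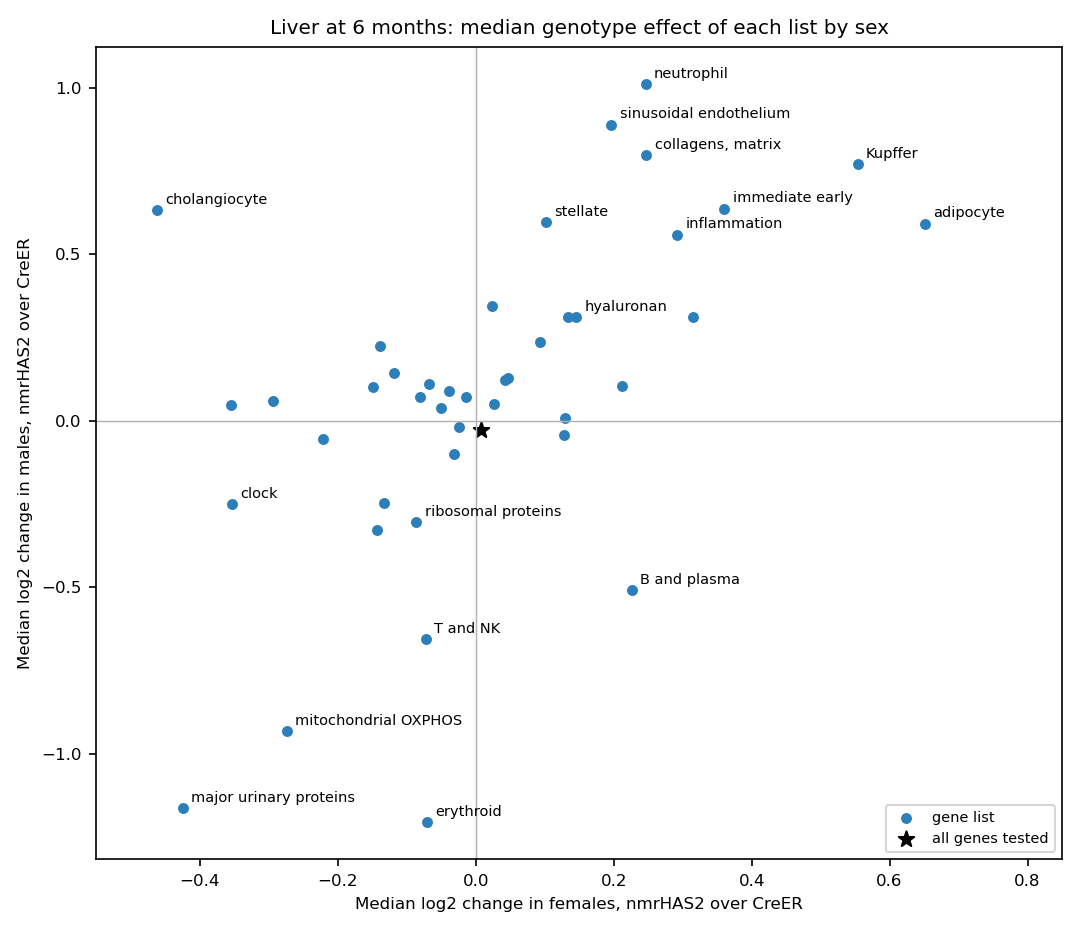
Median log2 change of nmrHAS2 over CreER within males (vertical) against that within females (horizontal); points are gene lists with at least 5 tested genes and the star is the median of all genes tested, near 0 on both axes. Endothelial markers stand at 0.89 in males and 0.20 in females, Kupffer cell markers at 0.77 and 0.55, and mitochondrially encoded genes at -0.93 and -0.27; members of a list share libraries and are not replicates.

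Among the 18 tested genes that make, bind or degrade hyaluronan, 2 were called in males, Stab2 and Cemip2, against 1.22% of all genes, and 0 over both sexes, against 0.0463%. Cemip2, a cell surface protein linked to hyaluronan breakdown, had 14.5, 23.0 and 15.9 CPM in nmrHAS2 and 8.35, 10.7 and 6.09 CPM in CreER males (1.09 ± 0.25, adjusted p = 0.0287). In females it had 25.7, 24.5 and 20.1 CPM in nmrHAS2 and 24.2, 23.3 and 19.9 CPM in CreER livers, close together. The receptors Cd44 (0.76 ± 0.27, adjusted p = 0.197) and Stab1 (0.42 ± 0.14, adjusted p = 0.177) were higher over both sexes without passing. The hyaluronidases Hyal1 (0.10 ± 0.16) and Hyal2 (0.02 ± 0.09) had changes smaller than their errors. The synthases Has1, Has2 and Has3 were among 6 genes of the list too low to be tested. Of 14 genes that make UDP-sugar precursors 0 were called, against 0.0463% of all genes over both sexes and 2.32% in males. At an unadjusted p under 0.05 over both sexes, 3 of the 14 were higher and 3 lower, against 6.93% and 7.54% of all genes.

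Some matrix genes rose in males as well. Of 29 collagens and matrix genes, 4 were called higher in males (1.22% of all genes) and 0 lower (1.11%). In males 18 were apart (6.94% of all genes) and all 29 had a positive change (45.5% of all genes). The median was 0.80 in males and 0.25 in females, where 0 were called (0.00579% of all genes). Col4a1, a chain of basement membrane collagen, had 33.2, 58.6 and 37.8 CPM in nmrHAS2 and 20.5, 17.5 and 15.8 CPM in CreER males (1.27 ± 0.30, adjusted p = 0.0299). Lamb1, a laminin chain, had 9.26, 11.4 and 12.4 CPM in nmrHAS2 and 5.82, 5.53 and 3.16 CPM in CreER males (1.18 ± 0.21, adjusted p = 0.00996). Both male groups were apart in these 2 genes. Fbn1 and Col14a1 were called as well, while the fibrillar collagen gene Col1a1 (1.63 ± 0.58, adjusted p = 0.133) was not. Of 12 stellate cell markers, 2 were called in males, against 1.22% of all genes: Reln, at 53.1, 53.9 and 64.5 CPM in nmrHAS2 and 33.3, 28.2 and 21.4 CPM in CreER livers, and the growth factor Hgf, at 9.57, 5.69 and 13.3 CPM in nmrHAS2 and 4.82, 3.53 and 1.69 CPM in CreER livers. The summed level of the 29 matrix genes, 1932, 2756 and 2901 CPM in nmrHAS2 and 2102, 1687 and 1553 CPM in CreER males, overlapped between genotypes. In females Reln and Hgf differed by 0.07 ± 0.19 and 0.18 ± 0.30.

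The 8 largest male rises under the naming rule were Mup13, given with its family, Slc34a2 (3.10 ± 0.77), a phosphate transporter, Loxl4 (2.69 ± 0.68), a lysyl oxidase, Thbs1 (2.53 ± 0.55) and Thbs2 (1.76 ± 0.40), thrombospondins, Lama2 (2.09 ± 0.37), a laminin chain, Akap12 (2.07 ± 0.43), a scaffold of protein kinase A, and Papln (1.61 ± 0.41). Thbs1 had 3.67, 10.6 and 1.75 CPM in nmrHAS2 and 1.20, 0.851 and 0.687 CPM in CreER males. Akap12 had 6.21, 16.3 and 4.99 CPM in nmrHAS2 and 2.68, 1.74 and 2.11 CPM in CreER males. In both, nmrHAS2 replicate 2 stood far above the other 2 nmrHAS2 males, which were still higher than all CreER males. That library also had the highest summed level of immediate early genes, 590 CPM, against 199 and 235 CPM in the other nmrHAS2 and 165 to 371 CPM in the CreER males. The part of this in the results was not tested.

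Kupffer cell and macrophage markers were on the higher side in both sexes. Of 21 tested, 2 were called in males (1.22% of all genes) and 0 in females (0.00579% in either direction). The medians were 0.77 in males and 0.55 in females, and 13 were apart in males (6.94% of all genes). Mpeg1, a pore-forming protein of macrophages, had 60.4, 56.8 and 73.8 CPM in nmrHAS2 and 39.3, 27.6 and 31.6 CPM in CreER males (0.96 ± 0.25, adjusted p = 0.0445), and 59.7, 107 and 73.1 CPM in nmrHAS2 and 68.8, 63.8 and 54.997 CPM in CreER females. Gpnmb had 0.820, 0.632 and 1.58 CPM in nmrHAS2 and 0, 0.128 and 0.137 CPM in CreER males. The summed level was 470, 545 and 717 CPM in nmrHAS2 and 404, 330 and 261 CPM in CreER males, without overlap. In females it was 807, 1773 and 1072 CPM in nmrHAS2 and 881, 843 and 662 CPM in CreER livers, with replicate 1 of nmrHAS2 inside the CreER range. The male median was 0.35 without nmrHAS2 replicates 2 and 3. Female nmrHAS2 replicate 2 led in Timd4, a receptor of resident Kupffer cells, at 22.5 CPM, against 7.58 and 11.8 CPM in the other nmrHAS2 and 6.60 to 8.18 CPM in the CreER females.

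**Figure D4:**
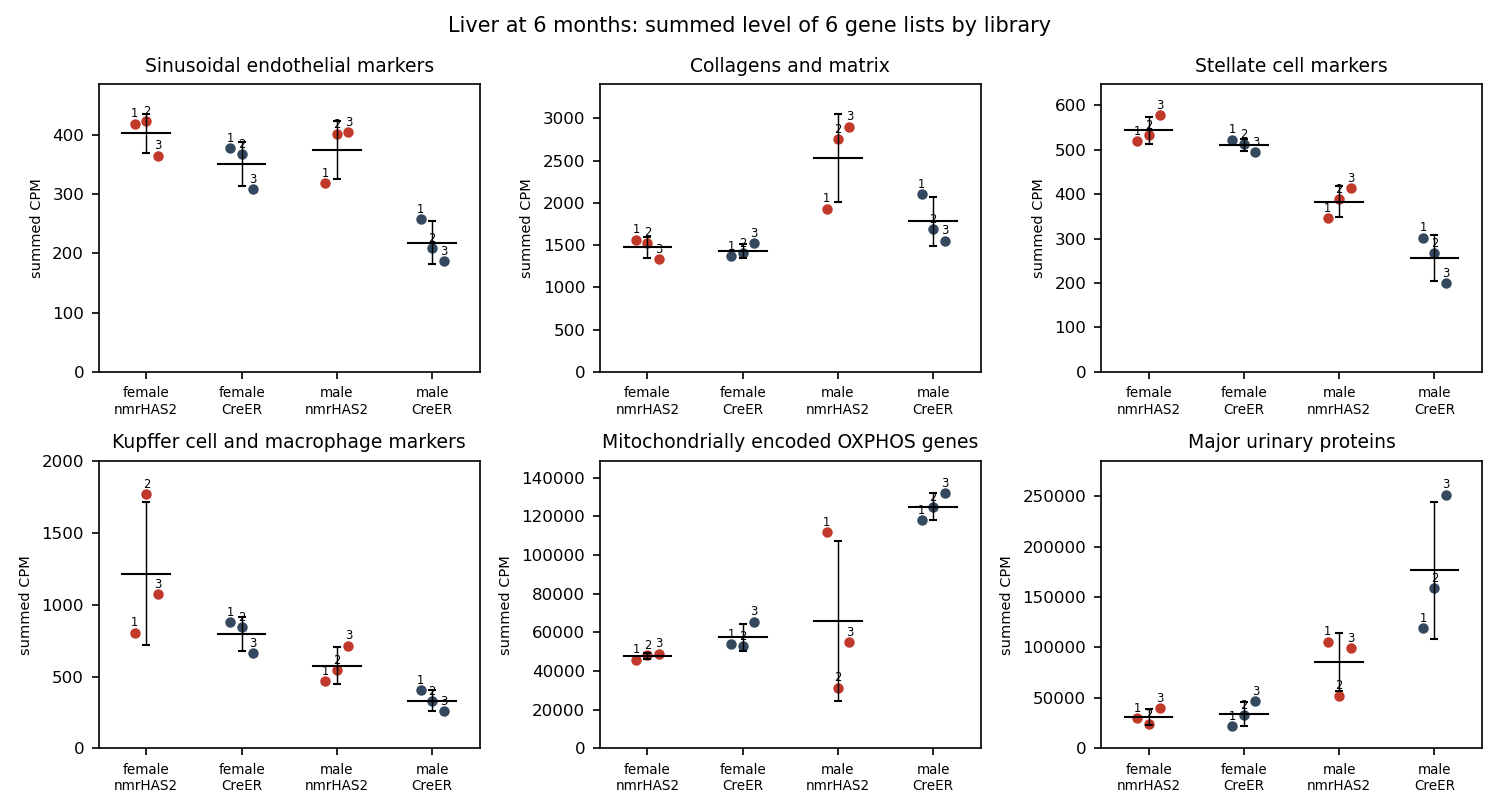
Summed CPM (linear axis) of 6 gene lists by group; points are libraries numbered by replicate, horizontal lines the mean and vertical bars 1 SD (n = 3). Endothelial, stellate and Kupffer cell sums of male nmrHAS2 livers lie above those of CreER males, major urinary protein sums lie below, and the mitochondrial sum is low in male nmrHAS2 replicates 2 and 3 (31348 and 54866 CPM) and near the CreER males in replicate 1 (111832 CPM).

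Genes of the respiratory chain lay on the lower side. All 13 mitochondrially encoded genes of oxidative phosphorylation were lower in both sexes, against 29.9% of all genes, with medians of -0.93 in males and -0.27 in females. In males 1 of them, mt-Nd3, was called lower, against 1.11% of all genes. Its level was 623, 182 and 341 CPM in nmrHAS2 and 930, 1125 and 1099 CPM in CreER males (-1.46 ± 0.32, adjusted p = 0.0244). The sum of the 13 was 111832, 31348 and 54866 CPM in nmrHAS2 and 117922, 124794 and 131756 CPM in CreER males. In females it was 45860, 48037 and 48979 CPM in nmrHAS2 and 53793, 52966 and 65482 CPM in CreER livers. Both sexes were apart, in males mostly through nmrHAS2 replicates 2 and 3, without which the male median was -0.22. Of 35 nuclear genes of the same chain 3 fell in males, Cox6c, Cox5b and Ndufv2, against 1.11% of all genes, and 0 rose. On the lower side were 29 of the 35 in males, against 53.1% of all genes. Cox6c, a subunit of cytochrome oxidase, had 110, 97.8 and 93.2 CPM in nmrHAS2 and 156, 172 and 208 CPM in CreER males (-0.83 ± 0.16, adjusted p = 0.0154). In females it had 141, 149 and 180 CPM in nmrHAS2 and 167, 169 and 225 CPM in CreER livers, where the ranges overlapped. Of 28 cytosolic ribosomal proteins 1 fell in males, Rpl24 (-0.53 ± 0.12, adjusted p = 0.0277), against 1.11% of all genes. All 28 were on the lower side in males, against 53.1% of all genes, with a median of -0.30.

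Among the largest male falls were also the mitochondrial ribosomal RNAs mt-Rnr1 (-1.46 ± 0.37) and mt-Rnr2 (-1.42 ± 0.36), the splicing protein Snrpe (-1.16 ± 0.28), the centrosomal Cep57l1 (-1.24 ± 0.33) and the zinc finger genes Zfp40 (-1.77 ± 0.32), Zfp273 (-1.42 ± 0.31) and Zfp759 (-1.28 ± 0.33). Snrpe had 11.6, 3.11 and 8.10 CPM in nmrHAS2 and 15.3, 15.6 and 20.1 CPM in CreER males. Male nmrHAS2 replicate 2 was lowest in Snrpe, Zfp40, Zfp273, Zfp759 and Cep57l1.

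Called genes of males differed in length. The median exonic length was 6677 bases for the 210 rises and 2919 bases for the 191 falls, against 3902.5 bases for all genes tested. Among genes under 1000 bases the median change was -0.23 in males and -0.14 in females, and among genes of 8000 bases or more it was 0.14 in males and 0.04 in females. Of the rises 82 and of the falls 10 were of 8000 bases or more, out of 2535 genes. A length index took protein-coding genes of at least 2 CPM, 4700 of 5000 bases or more and 212 under 1000 bases. The median log2 level of the long genes minus that of the short ones was 0.05, -0.32 and -0.002 in nmrHAS2 and -0.19, -0.52 and -0.71 in CreER males, and -0.26, -0.49 and -0.27 in nmrHAS2 and -0.54, -0.41 and -0.43 in CreER females. It therefore varied within groups as well as between them. The median length was 6619 bases for the matrix list and 4203 bases for the endothelial markers, and 2147 bases for the nuclear genes of the respiratory chain and 1989.5 bases for ribosomal proteins. The part of length in the results on these lists was not tested.

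**Figure D5:**
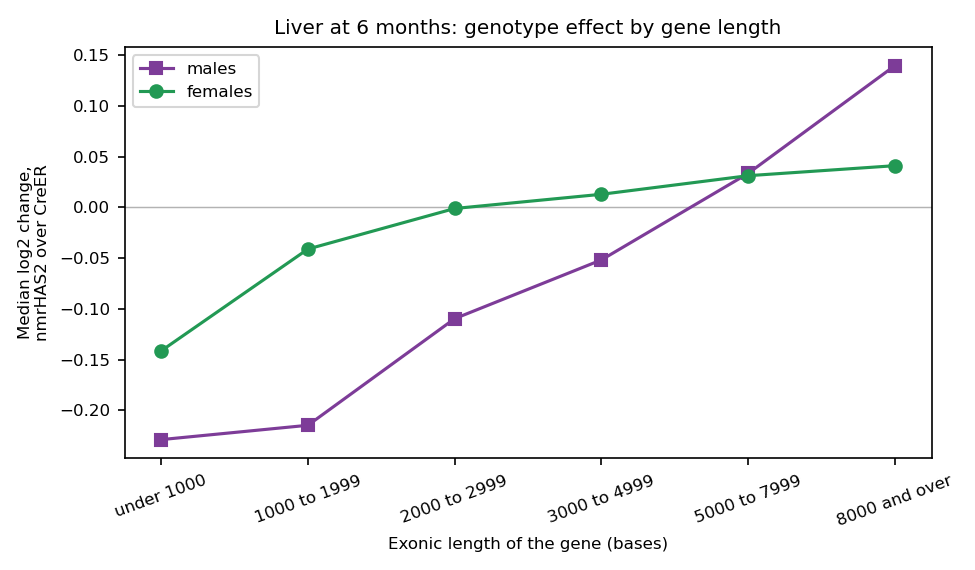
Median log2 change of nmrHAS2 over CreER (vertical) by exonic length of the gene in bases (horizontal, 6 classes), for males and females. The male line climbs from -0.23 under 1000 bases to 0.14 at 8000 bases and over, and the female line from -0.14 to 0.04.

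The major urinary proteins, pheromone carriers that male livers make in bulk, were on the lower side. Of 20 tested, 18 were lower in males with a median of -1.16 and 16 in females with a median of -0.42. In males 8 were apart and lower, against 8.99% of all genes, and 0 fell by the test, against 1.11%. The summed level was 105721, 52350 and 99033 CPM in nmrHAS2 and 119011, 158815 and 251570 CPM in CreER males, and overlapped in females. Mup13 alone was called and rose in males (5.63 ± 1.403, adjusted p = 0.0407), with 5.90, 882 and 168 CPM in nmrHAS2 and 5.44, 5.403 and 10.5 CPM in CreER livers. Replicates 2 and 3 of nmrHAS2 were high and replicate 1 was within the CreER range, and without replicates 2 and 3 the change was -0.30. These genes are near-identical copies between which reads can be split, so single members are uncertain. Of 20 genes expressed more in male and 21 expressed more in female liver, 0 were called. Of all genes, 0.0463% were called over both sexes and 2.32% in males, so 0 calls is near these shares and is no result. In males 18 of the 20 male-biased genes were on the lower side, against 53.1% of all genes, with a median of -0.33. Of the 20, 3 were apart and lower in males, against 8.99% of all genes. Their summed level was 24165, 22244 and 25268 CPM in nmrHAS2 and 31545, 36171 and 38588 CPM in CreER males, without overlap. Mup20 is in this list and in that of the major urinary proteins, so the sums of these lists share a member.

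Of 16 genes of gluconeogenesis and fasting, 1 was called higher in males, against 1.22% of all genes. Their median was 0.34 in males and 0.02 in females. The gene called was Irs2, the insulin receptor substrate that rises with fasting (1.36 ± 0.31, adjusted p = 0.0286). It had 17.4, 44.6 and 29.6 CPM in nmrHAS2 and 18.1, 9.02 and 8.42 CPM in CreER males, which overlap, and 16.4, 12.2 and 12.9 CPM in nmrHAS2 and 6.72, 7.48 and 10.3 CPM in CreER females, which do not. Stat5b, the transcription factor through which growth hormone acts, was called in males as well (0.71 ± 0.18, adjusted p = 0.0421). It was the 1 call in males among 16 genes of the growth hormone and IGF1 axis, whose male median was 0.13. The heat shock gene Hspa1a had 18.3, 2.62 and 1.58 CPM in nmrHAS2 and 0.349, 1.28 and 0.0458 CPM in CreER males (3.74 ± 0.84, adjusted p = 0.0251), with nmrHAS2 replicate 1 far above the rest. It was the 1 call in males among 17 heat shock genes. The median of that list was 0.05 in males, and in females 15 of the 17 were lower. Mzb1 of plasma cells was called lower, yet it had 0 counts in all nmrHAS2 males and 0.128 to 0.275 CPM in CreER males. No fold is given, since the lowest CreER male lay under the highest limit of 3 counts in nmrHAS2 males, 0.149 CPM.

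Several lists of hepatocyte metabolism had 0 called members, over both sexes and in each sex: cholesterol synthesis (25 genes, median -0.12), fatty acid synthesis (22, -0.01), fatty acid oxidation (30, 0.23), bile acids (24, 0.07), both phases of xenobiotic metabolism (36 and 35), the urea cycle (32, -0.05) and the pericentral and periportal zones (16 and 15). The same holds for interferon-stimulated genes (45, -0.03), antigen presentation (19, 0.09), the acute phase (30, 0.16), complement and coagulation (31, 0.03), NRF2 targets (24, 0.07), p53 targets (21, 0.12), proliferation (26, 0.34) and the unfolded protein response (24, -0.09). Of all genes, 0.0463% were called over both sexes, 0.00579% in females and 2.32% in males. In lists of this size, 0 calls is near these shares and is no result about the pathways. Some of these lists leaned to 1 side in females, where 48.2% of all genes were lower. Phase II of xenobiotic metabolism was lower in 28 of 35 genes, with 8 apart (5.49% of all genes), and its summed level was 12019, 12051 and 11859 CPM in nmrHAS2 and 13136, 13774 and 13295 CPM in CreER females, without overlap. The urea cycle list was lower in 29 of 32 genes and cholesterol synthesis in 24 of 25 in females, and the summed levels of both overlapped between genotypes. Fatty acid oxidation was higher in 27 of 30 genes in females and 22 of 30 in males. At the depth and spread of these libraries, the median standard error of a gene was 0.19 over both sexes, 0.27 in females and 0.28 in males.

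In females the gene called was Sult2a6, a sulfotransferase of the female liver. It had 0.0454, 0.0419 and 0.0116 CPM in nmrHAS2 and 17.3, 14.5 and 13.6 CPM in CreER females (-8.74 ± 1.12, adjusted p = 0.0313), and 0 counts in all males. With the replicate number as a block it was not called (adjusted p = 0.746). Other members of the family that were lower without overlap in females, though not called, were Sult2a4, Sult2a5 and Sult2a7. Of all genes, 5.49% were lower without overlap in females. Sult2a4 had 0.341, 0.391 and 0.128 CPM in nmrHAS2 and 6.79, 5.73 and 5.80 CPM in CreER females, and Sult2a5 had 12.4, 9.82 and 5.85 CPM in nmrHAS2 and 43.6, 37.2 and 34.9 CPM in CreER females. Sult2a7 had 40.1, 46.9 and 37.1 CPM in nmrHAS2 and 83.9, 82.6 and 165 CPM in CreER females. Sult2a1, Sult2a2, Sult2a3 and Sult2a8 overlapped between genotypes in females. Sult2a1 had 261, 312 and 298 CPM in nmrHAS2 and 304, 242 and 271 CPM in CreER females. The copies are near-identical and the fall of any one is uncertain.

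The difference between the sexes was called for Gm20547 (-16.30 ± 2.15 for females minus males, adjusted p = 0.0452, and 0.199 with the replicate block). It had 37.8, 28.6 and 19.9 CPM in nmrHAS2 males and 0 in all CreER males, at least 177-fold higher in the lowest nmrHAS2 male against the highest limit of 3 counts per library. Females had 0, 0 and 0.093 CPM in nmrHAS2 and 0.736, 0.0821 and 0 CPM in CreER livers. In GENCODE vM21 this gene overlaps the complement genes C2 and Cfb on the same strand of chromosome 17, so that reads can be divided between them. C2 had 92.6, 133 and 147 CPM in nmrHAS2 and 125, 121 and 136 CPM in CreER males, with overlap, and Cfb was at 997, 1320 and 1192 CPM in nmrHAS2 and 1061, 1139 and 829 CPM in CreER males.

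In other tissues of the same age the liver's 8 genes were mostly not called. Kidney had 1202 calls (6.47%), among them Ptprb (0.34 ± 0.10, adjusted p = 0.0416) in the direction of the liver and Zfp967 (0.21 ± 0.06, adjusted p = 0.0449) in the opposite one. Intestine had 1 call (0.00474%), muscle 2 (0.0111%), spleen 1 (0.0048%) and white adipose tissue 22 (0.104%), with 0 of the 8 among them. The kidney also called Arntl (1.08 ± 0.21), Npas2 (1.20 ± 0.30), Dbp (-1.39 ± 0.30), Ciart (-1.55 ± 0.37) and Tef (-0.51 ± 0.12) in the direction that they had in liver, and Per2 there was at -0.77 ± 0.27 (adjusted p = 0.0902). The other clock genes looked up in kidney, Per1, Per3, Nr1d1, Nr1d2 and Cry1, were not called. Cry1, at 0.78 in liver, was at -0.009 ± 0.234 in kidney (adjusted p = 0.998). One animal may have given libraries of more than 1 tissue, so these values are not independent of the liver.

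At 24 months 6376 genes (36.9%) were called between genotypes in liver, and the effect at 6 months differed from that at 24 months for 4640 genes (26.9%). Of the 8 genes, 7 differed between ages. Map4k4 had a change of 0.86 at 6 and -0.56 at 24 months, Specc1l 0.43 and -0.28, Adamts4 2.28 and -1.11, and Zfp967 -0.64 and 0.31. Ptprb was the one whose effect was not called different (0.57 at 6 and 0.52 at 24 months, adjusted p = 0.837 for the difference). In females the old livers were partly of another kind of library than the young ones, which both genotypes shared.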

How the data were processed

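RNA of 144 mouse tissue samples was sequenced, 12 of them 6-month livers with 3 libraries per sex and genotype, grouped by their labels. Per the submitters' processing notes, the authors used Trim Galore 0.6.5 for trimming and Salmon 1.4.0 for quantification, and they deposited expected counts per gene. Build and annotation were not given in the sources used here. All columns matched a sample. Here the estimated counts were rounded, and all 24 liver libraries were fitted with 8 group means in edgeR 4.0.16 (R 4.3.3): TMM scaling, filterByExpr, quasi-likelihood F test, 2-sided p adjusted by Benjamini and Hochberg over 17270 genes, threshold 0.05. Standard errors come from the log2 change and the F statistic (size of the change over the root of F). Depth was 20.1 to 97.4 M counts per young library. Limits for a count of 0 are 3 counts of the library total and cover counting error only. The labels do not tie libraries to animals, so a p-value speaks only of the spread among these libraries, which may be technical.

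The members and gene lists were chosen with earlier results of these data known. Named genes are the 8 largest called rises and 8 largest called falls of at least 2 CPM with the same sign in both sexes, filled up by p, up to 4 called members of each of 43 lists, the transgene and Has2, and for the sex difference the 5 smallest p if called. Predicted genes, pseudogenes and immunoglobulin segments are left out. Applying the rule to males, and naming Adamts4, Sult2a6 and Gm20547, were decided after their values were seen, as were the clock genes, list members and relatives named without a call. Exonic lengths and gene neighbours are from GENCODE vM21, matched by symbol (39779 symbols, 98.2% of the genes tested with a length). Each other tissue was fitted on its own. Deviations of same-numbered nmrHAS2 and CreER libraries had correlations of 0.269, 0.397 and 0.624 in females and -0.00937, 0.179 and 0.00513 in males. Among differently numbered female pairs, nmrHAS2 2 with CreER 1 (0.511) and nmrHAS2 1 with CreER 2 (0.349) lay above the same-number value of that nmrHAS2 library. The other differently numbered female pairs had -0.38, -0.562, -0.519 and -0.492. The labels say nothing of a pairing, and the main fit has none. The fit was also run on simulated counts. These held no differences between sexes or kinds of library, so that run says nothing of how such differences act on the calls. Alternatives were RLE scaling, no filter, DESeq2 1.42.0, a replicate block, library kind as a term, only the young libraries and each young library left out; added after seeing the data were leaving out 2 male libraries and leaving out mitochondrial genes.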

Additional observations from a re-analysis of the deposited data

Results flagged for a closer look

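The genotype effect in liver at 6 months differed from that at 24 months, by the test of the difference over both sexes, in 7 of the 8 genes called at 6 months, against 26.9% of all genes. The effect at 6 months minus that at 24 months was 3.39 ± 0.53 for Adamts4 (adjusted p = 0.000302), 1.43 ± 0.19 for Map4k4 (adjusted p = 0.000122) and 0.71 ± 0.10 for Specc1l (adjusted p = 0.000229). It was 0.74 ± 0.19 for Hecw2 (adjusted p = 0.00673) and 0.70 ± 0.25 for Rnf144a (adjusted p = 0.0468). For the genes that fell it was -0.95 ± 0.15 for Zfp967 (adjusted p = 0.000338) and -1.03 ± 0.34 for Per2 (adjusted p = 0.0283). Since these genes were called at 6 months in the same fit, a difference in that direction is in part fixed by the choice.

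The effect at 6 months differed between the sexes for Gm20547, by -16.30 (adjusted p = 0.0452) for females minus males. Its CreER males were all at 0, so that the size depends on the prior count of the fit and is no bound. Sex and kind of library cannot be told apart at this age.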

How the results depend on the processing

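The 8 calls over both sexes became 34 under RLE scaling, 37 without a filter, 65 with the replicate block, 38 with library kind as a term, 500 in DESeq2 (309 higher, 191 lower), 0 with only the 12 young libraries and 0 without the 2 male nmrHAS2 libraries of low mitochondrial share. With 1 young library left out they ranged from 0 to 808. The 1 call in females became 5 without a filter, 0 with the replicate block, 2 with library kind and 9 in DESeq2, and 0 to 1 with 1 library left out. The 401 calls in males became 206 without a filter, 2 with only the young libraries, 1003 in DESeq2 and 26 without the 2 libraries, and 6 to 1735 with 1 library left out. The 1 call for the sex difference became 0 with the replicate block, 0 with only the young libraries, 0 without the 2 libraries and 59 in DESeq2, and 0 to 219 with 1 library left out. Calls for the age difference moved by less than 1.5 times under RLE scaling, no filter and DESeq2. All 8 genes remained called under RLE scaling, the replicate block, library kind, DESeq2 and without mitochondrial genes, and 7 without a filter. Mup13 in males reversed to -0.30 without the 2 libraries. The cause of these shifts was not tested.

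The replicate block moved the calls over both sexes to 65 and in males to 531, and ended the calls of Sult2a6, Gm20547 and, in males, Mup13, Slc34a2, mt-Rnr1, mt-Rnr2, Zfp759, Irs2, Cox5b, Gpnmb and Mzb1. In neither sex did every sample correlate best with its own number. Depth limits genes near 3 counts per library.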

Other observations

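Genes of skeletal muscle fibres were present in some nmrHAS2 livers and near 0 in CreER livers. Myh1, a myosin heavy chain of fast fibres, had 4.40, 0.349 and 29.3 CPM in nmrHAS2 and 0, 0.0585 and 0 CPM in CreER females, and 3.01, 0 and 0 CPM in nmrHAS2 and 0, 0 and 0.0458 CPM in CreER males. It was not called (adjusted p = 0.0508). Acta1, the skeletal actin, followed the same libraries, with 2.73, 0.0978 and 19.7 CPM in nmrHAS2 and 0.0849, 0.105 and 0.0274 CPM in CreER females. The muscle genes besides Myh1 were chosen after Myh1 was seen. The transgene had 38, 34 and 49 counts in the same 3 females, and the part of muscle RNA in other results was not tested.

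Of 29 inflammatory genes 0 were called, while 14 were higher and 1 lower at an unadjusted p under 0.05 (6.93% and 7.54% of all genes), with a median of 0.48 over both sexes. Neutrophil markers had a median of 1.01 in males and 0.25 in females with 0 called, and a summed level between 4.45 and 16.7 CPM in nmrHAS2 males, against 4.76 to 9.01 CPM in CreER males. Without male nmrHAS2 replicates 2 and 3 the male median of the neutrophil markers was -0.53 and that of the inflammatory genes 0.05, against 0.56 with them. T and NK cell markers lay lower in males, with a median of -0.66 and 0 called, and the median was -0.01 without male nmrHAS2 replicates 2 and 3. Of all genes, 0.0463% were called over both sexes, 0.00579% in females and 2.32% in males. In lists of this size, 0 calls is near these shares and is no result about the lists.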
